A study of Mus musculus with 12 samples.

Results

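The genes described here are 10 markers of the early oligodendrocyte lineage, Pdgfra, Cspg4, Gpr17, Olig1, Olig2, Sox10, Enpp6, Bmp4, Neu4 and Myrf, chosen by name, out of 54752 genes in the count table. They were followed in RNA-seq libraries of cerebellar cortex from 12 male mice aged 12 weeks, all wild type F1 hybrids of the C57BL6J and FVB strains. The AL group (n = 4) fed ad libitum, the DR group (n = 4) received a restricted food ration, and the KD group (n = 4) received a ketogenic diet, of which the composition and duration are not given in the sources used here. Per the study's methods, the DR mice were killed at the start of the dark period without their last daily meal. Effects of the ration and of the missed meal cannot be told apart here. The AL and DR mice were those with the best RNA out of a larger set. Each library came from 1 mouse, and the tissue was a part of the cortex without the deep nuclei. All 10 genes were detected in every library and passed the filter on low counts in every comparison.

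Oligodendrocyte precursors divide in the adult brain and carry on their surface the PDGF receptor encoded by Pdgfra and the NG2 proteoglycan encoded by Cspg4. A precursor that leaves the cycle passes through a short committed stage, marked by the receptor Gpr17 and by Bmp4, Neu4 and Enpp6, before the transcription factor Myrf switches on the myelin genes. The transcription factors Olig1, Olig2 and Sox10 are present throughout the lineage, so their RNA also comes from mature oligodendrocytes, and Myrf RNA comes largely from these. The RNA of the whole tissue was measured, in which most cells are neurons, and the granule cell gene Gabra6 and the Purkinje cell gene Pcp2 averaged 856 and 297 CPM (reads scaled to library size) on AL.

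The upstream sequences of 3 of the genes are shown here because their windows of 250 bases lie outside the gene in both annotations consulted, RefSeq and GENCODE. They set Enpp6, for which no DR mouse reached the AL range, beside Pdgfra and Bmp4, for which the diets overlapped. The Enpp6 gene (ENSMUSG00000038173.15) runs from 46986887 to 47096762 on chromosome 8, Pdgfra (ENSMUSG00000029231.15) from 75152292 to 75198215 on chromosome 5 and Bmp4 (ENSMUSG00000021835.15) from 46383520 to 46390669 on chromosome 14. RefSeq entries (GRCm38.p6) matched 6 of the 10 genes, namely Pdgfra, Cspg4, Olig2, Enpp6, Bmp4 and Neu4. For Enpp6 the window is chr8:46986637-46986886 on the plus strand, for Pdgfra chr5:75152001-75152250 on the plus strand and for Bmp4 chr14:46390670-46390919 on the minus strand, and each is written 5′ to 3′ on the strand of the gene, ending at the base before the RefSeq start. Capitals mark matches on either strand to CANNTG, the E-box read by basic helix-loop-helix factors such as Olig1 and Olig2, and to ACAANG, a core of the sites read by SOX factors such as Sox10, which appears as CNTTGT when it lies on the other strand. No matches of the 2 motifs overlapped in these windows.
Enpp6: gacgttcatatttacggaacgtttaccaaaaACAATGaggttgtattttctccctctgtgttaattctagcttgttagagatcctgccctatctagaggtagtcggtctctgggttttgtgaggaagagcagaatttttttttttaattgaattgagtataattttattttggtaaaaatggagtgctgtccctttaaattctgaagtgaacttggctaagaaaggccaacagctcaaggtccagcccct
Pdgfra: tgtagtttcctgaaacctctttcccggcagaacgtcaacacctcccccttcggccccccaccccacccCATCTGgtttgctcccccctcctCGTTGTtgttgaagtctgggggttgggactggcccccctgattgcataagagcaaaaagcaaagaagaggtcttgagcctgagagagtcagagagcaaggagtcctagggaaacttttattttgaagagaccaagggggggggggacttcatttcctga
Bmp4: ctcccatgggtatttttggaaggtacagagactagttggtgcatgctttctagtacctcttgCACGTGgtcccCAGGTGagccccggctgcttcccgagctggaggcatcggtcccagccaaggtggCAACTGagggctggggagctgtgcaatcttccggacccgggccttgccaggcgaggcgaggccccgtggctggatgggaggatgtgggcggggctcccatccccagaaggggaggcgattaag

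The Enpp6 window held 1 match to ACAANG and 0 to CANNTG, the Pdgfra window 1 of each, and the Bmp4 window 3 matches to CANNTG and 0 to ACAANG. Of the windows not shown, that of Olig2 held 1 match to ACAANG, that of Neu4 1 to CANNTG, and that of Cspg4 none of either. Among 32851 upstream windows of the same length in the mouse genome, 66.2% held CANNTG and 36.3% held ACAANG.

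Levels are given as CPM, the reads of a gene relative to all reads of its library, with library totals of 31712084 to 40798644 counts scaled by the trimmed mean of M-values (TMM). To compare one gene with another, CPM was divided by the exonic length in kilobases. Per kilobase, averaged over the 12 mice, Olig1 had the highest level at 7.49, with mice from 5.99 to 8.86, followed by Myrf at 5.24, Sox10 at 5.02, Gpr17 at 4.502 and Olig2 at 3.16. The ranges of neighbours within these 5 genes overlapped. Below them came Pdgfra at 1.68, with mice from 1.47 to 1.92, which overlapped neither Olig2 above it, with a lowest mouse of 2.67, nor Neu4 below it, with a highest of 1.33. Neu4 averaged 1.16 per kilobase, Bmp4 0.842, Cspg4 0.733 and Enpp6 0.473, again with overlapping neighbours. The factors shared with mature oligodendrocytes thus lay above both precursor surface markers, and within the committed stage Gpr17 lay above Neu4, Bmp4 and Enpp6 in each of the 12 mice.

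**Figure D1:**
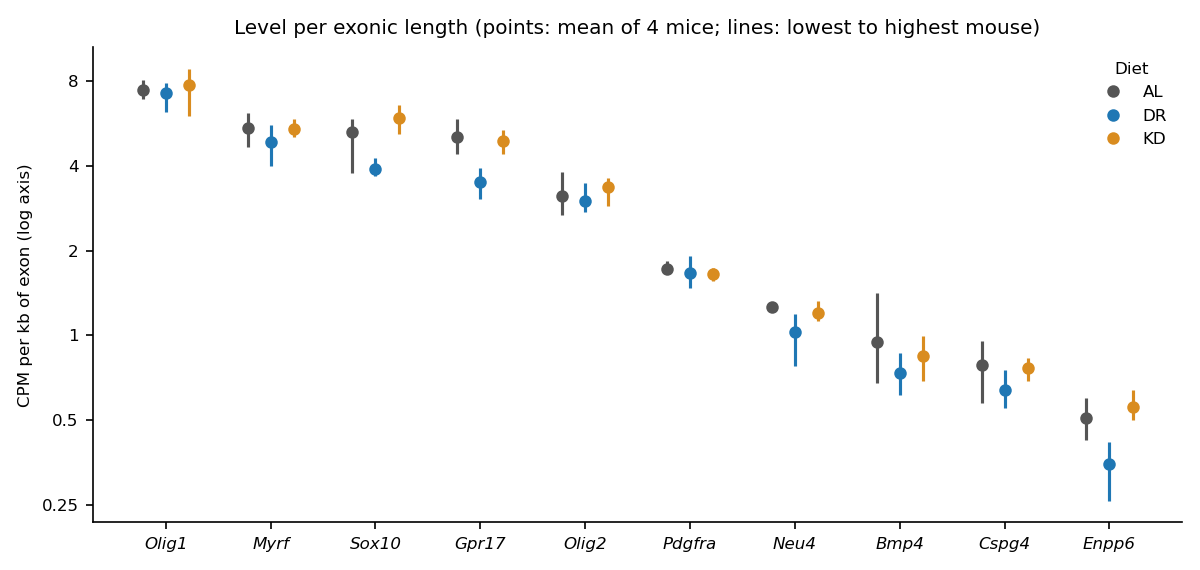
Level of each gene as CPM per kilobase of exon (log axis), with the mean of 4 mice per diet as a point and a line from the lowest to the highest mouse. Olig1 sits highest at a mean of 7.49 over the 12 mice and Enpp6 lowest at 0.473.

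Read numbers limited how precisely each gene was measured, beside variation between mice. Myrf had 1201 to 1828 reads per library and Gpr17 510 to 1075, whereas Enpp6 had 65 to 158 and Bmp4 50 to 129. In AL mice the coefficient of variation of Bmp4 was 36.6%, against 11.3% from counting alone, and that of Neu4 was 3.75%, against 6.86%. For Myrf, with the most reads, it was 14.8%, against 2.44%. Bmp4 had the largest standard error of the 10 in every comparison, and the error from counting covers sampling of reads only. AL replicate 2 had the lowest value of the AL group for each of the 10 genes except Olig1, and the DR against AL calls were also made without it.

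The first comparison asked how food restriction changed these genes. Gpr17, a receptor of committed precursors, fell by 30.6% on DR, and it was the 1 of 10 genes called in the test across all genes. The AL mice had 25.2, 22.9, 26.8 and 30.5 CPM of Gpr17, and the DR mice 18.9, 15.9, 20.5 and 17.8 CPM. Every DR mouse lay below every AL mouse. The means were 26.4 ± 3.20 and 18.3 ± 1.92 CPM (SD, n = 4 each), which gave a log2 fold change (log2FC) of -0.53 with a standard error (SE) of 0.09 and a false discovery rate (FDR, the Benjamini-Hochberg adjusted p of edgeR) of 0.00725. Gpr17 was called with each mouse left out in turn. In this comparison 3.06% of the 19052 genes tested were called in either direction and 1.74% were called lower on DR. In bulk tissue, fewer cells of a type and less RNA per cell cannot be told apart.

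Gpr17 lies inside Lims2 on the opposite strand, and 3.62% of its exonic bases overlap that gene. The library kit does not keep the strand, so that reads over the shared bases cannot be assigned. Lims2 RNA averaged 6.30 CPM on AL, 4.74 on DR and 5.84 on KD, with a log2FC between DR and AL of -0.41 (edgeR FDR = 0.0994), and every DR mouse was below every AL mouse. The part of Lims2 reads in the Gpr17 value was not tested.

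Of the other committed-stage genes, Enpp6, a choline phosphodiesterase of newly forming oligodendrocytes, was at 3.13, 2.74, 3.85 and 3.39 CPM in the AL mice and at 1.66, 2.22, 2.67 and 2.45 CPM in the DR mice. The groups did not overlap. Its log2FC of -0.54 (SE 0.16) was close in size to that of Gpr17 but did not pass, with an edgeR FDR of 0.0923. Neu4, a sialidase, was at 5.94, 5.60, 5.71 and 6.08 CPM in the AL mice and at 5.08, 3.62, 5.52 and 4.81 CPM in the DR mice. These groups also did not overlap, though the highest DR mouse came close to the lowest AL mouse, and the log2FC was -0.29 (SE 0.12, edgeR FDR = 0.224), or -0.18 without DR replicate 2, the lowest DR mouse. Bmp4, a secreted ligand of the BMP family, was at 3.18, 1.52, 1.55 and 2.28 CPM on AL and at 1.38, 1.84, 1.44 and 1.95 CPM on DR. Here 1 AL mouse stood above the rest and the groups overlapped (log2FC -0.38, SE 0.23, edgeR FDR = 0.433). Without that mouse, AL replicate 1, the log2FC was -0.10. Gpr17, Enpp6 and Neu4 were the 3 genes of the 10 with every DR mouse below every AL mouse, a pattern seen in 5.64% of all genes tested.

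The surface markers of undifferentiated precursors, a growth factor receptor and a proteoglycan, overlapped between the diets. Pdgfra was at 16.9, 16.6, 17.05 and 18.4 CPM in the AL mice and at 14.8, 14.7, 18.2 and 19.3 CPM in the DR mice. The DR mice fell on both sides of the AL mice, and the fitted difference was -2.70%, with a 95% interval from -14.7% to 11.05%. Cspg4 was at 10.1, 6.89, 11.4 and 9.19 CPM on AL and at 7.07, 6.61, 7.94 and 8.99 CPM on DR. These values overlapped, with a difference of -18.4% and an interval from -33.5% to 0.0319% (edgeR FDR = 0.279). The log2FC of -0.29 became -0.19 without AL replicate 3, the highest AL mouse.

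Among the transcription factors, Sox10 was at 17.3, 11.5, 17.9 and 17.8 CPM in the AL mice and at 12.0, 11.2, 11.2 and 13.0 CPM in the DR mice. AL replicate 2 lay among the DR mice while the other 3 AL mice lay above them. The log2FC of -0.44 (SE 0.12) had an edgeR FDR of 0.0608, and without AL replicate 2 it was -0.58 (edgeR FDR = 0.00362), which is past the threshold. Olig1 was at 15.8, 17.5, 16.2 and 14.99 CPM on AL and at 13.4, 17.04, 15.4 and 16.96 CPM on DR. Olig2 was at 7.84, 6.76, 7.40 and 9.67 CPM on AL and at 7.05, 6.93, 7.54 and 8.77 CPM on DR. In both Olig genes the diets overlapped, with differences of -2.67% (95% interval -13.9% to 10.1%) for Olig1 and -4.07% (-19.2% to 13.9%) for Olig2. Myrf was at 41.2, 40.001, 52.5 and 52.6 CPM on AL and at 34.3, 37.5, 48.0 and 46.9 CPM on DR. Each diet held 2 lower and 2 higher mice for Myrf, and the log2FC was -0.16 (SE 0.11, edgeR FDR = 0.496), with values from -0.23 to -0.070 (without DR replicate 1) when a mouse was left out.

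**Figure D2:**
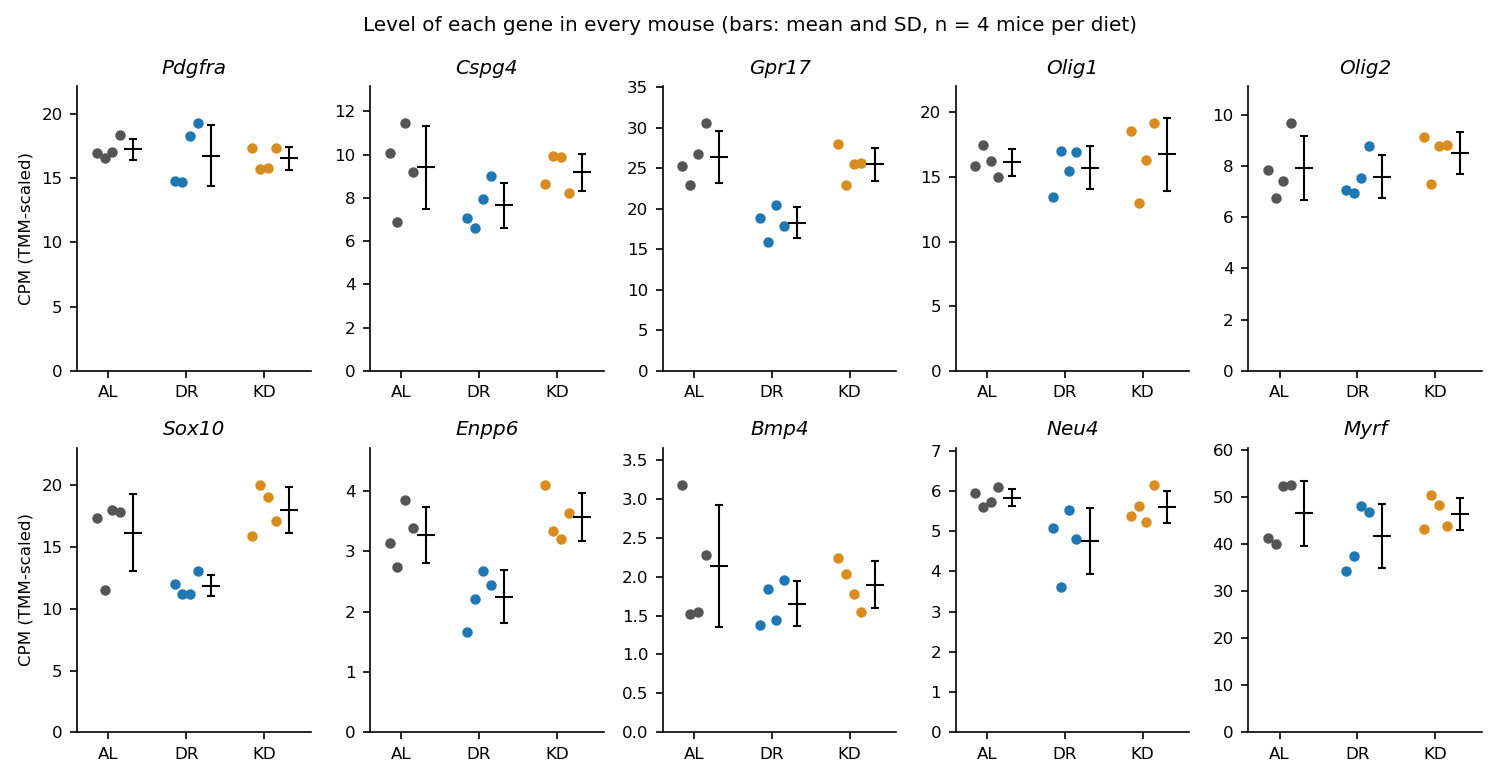
CPM of each gene on the vertical axis for every mouse (points), by diet, with the mean and SD of 4 mice beside the points. For Gpr17 the DR mice, at 15.9 to 20.5 CPM, sit below all AL mice, at 22.9 to 30.5 CPM, whereas for Pdgfra the DR mice, at 14.7 to 19.3 CPM, span the AL mice.

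All 10 genes had a negative log2FC on DR, with a median of -0.29 against 0.0036 over all genes tested, and 4 had an unadjusted p under 0.05 in edgeR's test, against 18.0% of all genes tested. The fitted values ranged from -0.54 for Enpp6 to -0.04 for Pdgfra and Olig1. With a mouse left out in turn, the values of Pdgfra, Olig1 and Olig2 took either sign.

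The ketogenic diet was then compared with AL. No gene of the 10 was called and none had an unadjusted p under 0.05. Of all 19036 genes tested, 0 (0%) were called by edgeR, 928 genes (4.87%) had an unadjusted p under 0.05, DESeq2 called 10 genes and edgeR's likelihood ratio test 18. Gpr17 was at 27.9, 23.0, 25.5 and 25.7 CPM in the KD mice, within the AL range, a difference of -2.96% (95% interval -13.9% to 9.37%). Enpp6 was at 4.10, 3.34, 3.20 and 3.63 CPM, so that 1 KD mouse lay above the AL mice, and its interval ran from -9.97% to 33.1%. Sox10 was at 15.8, 20.0, 18.99 and 17.1 CPM, with 2 KD mice above the AL mice and an interval from -6.39% to 33.2%.

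For the other genes KD and AL mice likewise overlapped. Pdgfra was at 17.4, 15.7, 15.8 and 17.3 CPM (interval of the difference from AL -12.5% to 5.70%) and Neu4 at 5.38, 5.62, 5.23 and 6.15 CPM (-15.7% to 9.58%). Cspg4 was at 8.65, 9.93, 9.88 and 8.24 CPM (-18.8% to 17.6%). These were the surface markers and the sialidase, and the KD mean lay within 1 AL SD of the AL mean for Pdgfra and Cspg4. Olig1 was at 18.5, 13.0, 16.3 and 19.2 CPM (-10.4% to 20.8%), Olig2 at 9.14, 7.31, 8.78 and 8.80 CPM (-7.88% to 26.7%) and Myrf at 43.3, 50.4, 48.2 and 43.9 CPM (-11.9% to 13.4%). Bmp4 was at 2.23, 2.03, 1.78 and 1.54 CPM, and its interval, from -36.4% to 23.5%, was the widest of the 10. The fitted changes were negative for 6 genes and positive for 4, with a median of -0.02 log2 against 0.00021 over all genes. None of the 10 separated the diets, where 1.55% of all genes had every KD mouse below every AL mouse and 1.41% had every KD mouse above.

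The third comparison set the ketogenic diet against food restriction. It shares the DR libraries with the first comparison and the KD libraries with the second, so it is not independent of either. Gpr17, Sox10 and Enpp6 were called, all higher on KD, and in all 3 every KD mouse lay above every DR mouse. Gpr17 was 39.5% higher on KD (log2FC 0.48, SE 0.08, edgeR FDR = 0.00217). Sox10 was 51.5% higher, from 11.8 ± 0.849 to 18.0 ± 1.87 CPM (SD, n = 4 each), with a log2FC of 0.60 (SE 0.08, edgeR FDR = 0.000592). Enpp6 was 59.1% higher, from 2.25 ± 0.435 to 3.57 ± 0.399 CPM (SD, n = 4 each), with a log2FC of 0.67 (SE 0.15, edgeR FDR = 0.0191). Without KD replicate 1, the KD mouse with the highest Enpp6, the call of Enpp6 was lost (log2FC 0.60, edgeR FDR = 0.0728), while Gpr17 and Sox10 were called with each mouse left out in turn.

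In this comparison 4.94% of the 19087 genes tested were called, 2.43% were called higher on KD, and 6.03% had every KD mouse above every DR mouse. The remaining 7 members overlapped between KD and DR. Cspg4 had a log2FC of 0.26 (edgeR FDR = 0.178), Neu4 of 0.23 (edgeR FDR = 0.331), Bmp4 of 0.20 (edgeR FDR = 0.603), Olig2 of 0.17 (edgeR FDR = 0.384), Myrf of 0.16 (edgeR FDR = 0.378) and Olig1 of 0.09 (edgeR FDR = 0.702). With a mouse left out, these fell as low as 0.12 for Neu4 (without DR replicate 2), 0.11 for Bmp4 (without KD replicate 1) and 0.072 for Myrf (without DR replicate 1). Pdgfra, at -0.02, was the 1 gene with a negative value, with a 95% interval of the difference from -13.3% to 12.4%.

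**Figure D3:**
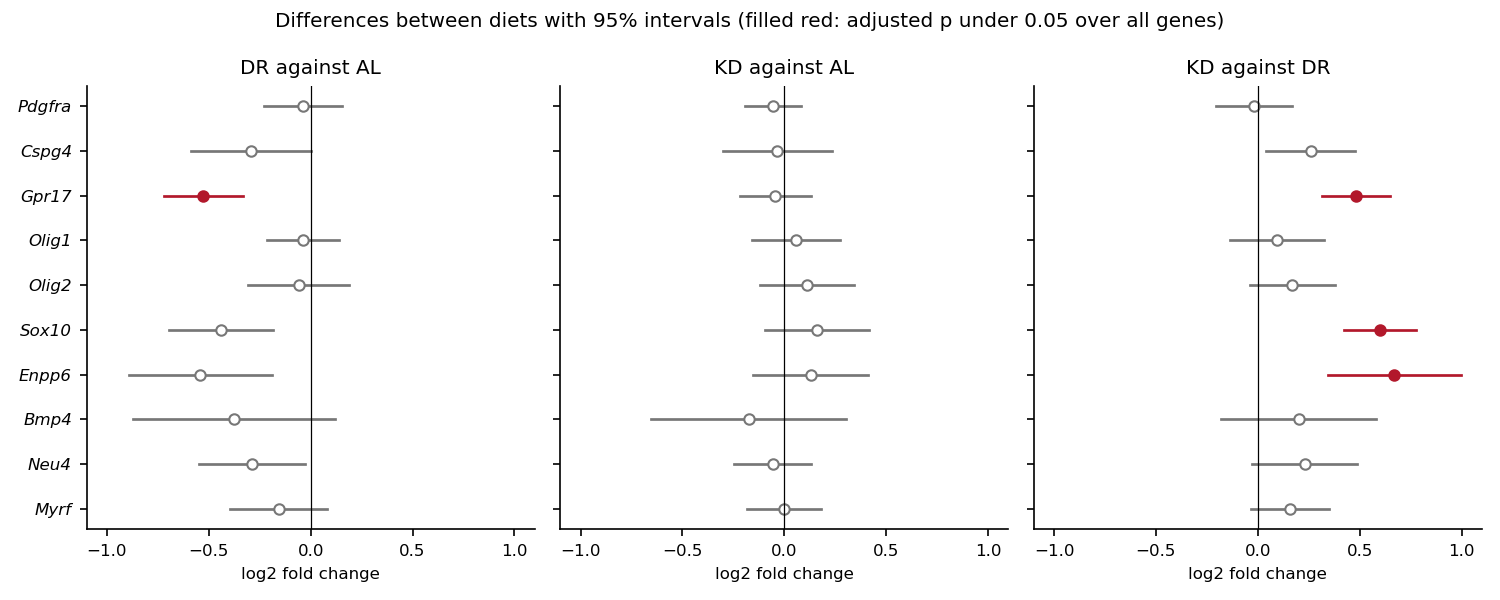
Log2 fold changes (horizontal axis) of the 10 genes in the 3 comparisons, with points for edgeR estimates and lines for 95% intervals, filled red where the adjusted p is under 0.05. Gpr17 is filled for DR against AL (-0.53), and Gpr17, Sox10 and Enpp6 are filled for KD against DR (0.48, 0.60 and 0.67), while Pdgfra stays near 0 in all 3 panels.

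Each gene was also expressed relative to Pdgfra within a mouse, a measure chosen after the values were seen. Pdgfra itself differed little between diets, so the ratios largely restate the values of each gene. On this scale the Gpr17 to Pdgfra ratio on DR was 0.719 times that on AL, and the Enpp6 to Pdgfra ratio was 0.711 times. Neither ratio overlapped between the diets. Between KD and DR, the ratios to Pdgfra of Gpr17, Sox10 and Enpp6 were 1.41, 1.52 and 1.599 times as high, again without overlap. Each of these 5 differences had p = 0.0286 in a two-sided exact permutation test, the smallest that 4 mice against 4 allow. Their adjusted p was 0.154 over the 27 ratios tested. With 5 of 27 ratios at the smallest possible p, none could pass the adjustment, so this test cannot decide. The Cspg4 to Pdgfra ratio on DR was 0.852 times that on AL (exact permutation test, p = 0.257, adjusted p = 0.463).

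Other genes of the same stages were taken from lists. Of 19 further genes enriched in precursors, 2 were called lower on DR than on AL, 17 were not called, and the median log2FC was -0.14. Over all genes 1.74% were called lower on DR in edgeR's main test. DESeq2 and edgeR's likelihood ratio test each called 4 of the 19 lower. These 2 tools made 958 and 998 calls over all genes, of which 42.9% and 47.5% were higher on DR, against 583 calls by the main test. An unadjusted p under 0.05 in edgeR's main test was seen for 9 genes in the negative direction and 1 in the positive direction, against 18.0% of all genes in either direction. Ptprz1, a receptor phosphatase of precursors and Bergmann glia, averaged 395 ± 5.49 CPM on AL, 335 ± 16.3 on DR and 369 ± 17.3 on KD (SD, n = 4 each), with a log2FC on DR of -0.24 (edgeR FDR = 0.0113). Megf11 averaged 199 ± 19.8, 163 ± 12.3 and 190 ± 8.42 CPM (SD, n = 4 each), with -0.29 on DR against AL (edgeR FDR = 0.0342) and 0.22 on KD against DR (edgeR FDR = 0.0245). Ptprz1 separated AL from DR in every mouse, and Megf11 separated KD from DR. On KD against AL 0 of the 19 were called by edgeR or DESeq2, 14 values were negative and 5 positive, and 4 had an unadjusted p under 0.05, all negative. Of these, Ptprz1 (log2FC -0.10, unadjusted p = 0.0250 and FDR = 0.981 in edgeR), Vcan, a matrix proteoglycan (-0.18, unadjusted p = 0.00365 and FDR = 0.981 in edgeR), and Sulf2, a heparan sulfatase (-0.18, unadjusted p = 0.0218 and FDR = 0.981 in edgeR), had every KD mouse below every AL mouse. Stk32a, the other of the 4, had the largest change of these (-0.30, unadjusted p = 0.000987 and FDR = 0.694 in edgeR), and its mice overlapped. Over all genes, 1.55% had every KD mouse below every AL mouse. In KD against DR, edgeR called 1 of the 19, Megf11, and DESeq2 called 2 higher, and the list had a median of 0.08. Which cells the RNA of these listed genes came from was not tested.

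Of 18 further genes of committed precursors and newly formed oligodendrocytes, 17 were tested. On DR against AL edgeR called 1 lower, while DESeq2 and the likelihood ratio test each called 3 lower. These tools also called more of all genes, 958 and 998 in either direction against 583 by edgeR's main test, which called 1.74% lower. In edgeR's main test 6 had an unadjusted p under 0.05, all negative, against 18.0% of all genes in either direction. Which cells the RNA of these genes came from was not tested. Dock10, a guanine nucleotide exchange factor, was called in both comparisons that involve DR. It was at 16.2, 16.4, 18.0 and 17.5 CPM on AL, at 11.03, 12.4, 13.6 and 12.9 CPM on DR, and at 18.3, 15.2, 17.5 and 14.8 CPM on KD. Every DR mouse lay below every AL and every KD mouse (log2FC -0.45 against AL, edgeR FDR = 0.00697, and 0.40 for KD against DR, edgeR FDR = 0.0135). Tnr, the matrix protein tenascin-R, was called higher on KD than on DR (0.32, edgeR FDR = 0.00272) and had -0.23 on DR against AL (edgeR FDR = 0.0520). The list had 16 negative and 1 positive values on DR against AL, with a median of -0.09, and 15 positive and 2 negative values on KD against DR, with a median of 0.07. Bcas1, a marker of newly myelinating cells, averaged 46.6 CPM on AL, 46.3 on DR and 49.0 on KD and was not called.

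Growth factor signalling to precursors runs through the PDGF, FGF and IGF receptors. Of 16 such ligands and receptors, 15 were tested and 0 were called on DR against AL by edgeR or DESeq2, where 5 had an unadjusted p under 0.05 in the negative direction and 1 in the positive direction. Pdgfa, a ligand of the Pdgfra receptor, averaged 11.2 ± 0.626 CPM on AL, 10.1 ± 0.480 on DR and 11.2 ± 0.497 on KD (SD, n = 4 each) and was not called. Fgfr2 was called higher on KD than on DR (log2FC 0.28, edgeR FDR = 0.00630). Of 24 genes of BMP signalling beside Bmp4, 0 were called by edgeR in any comparison, while DESeq2 called 1 lower on DR than on AL, with medians of -0.01 on DR against AL and 0.02 on KD against DR and with 4 and 3 genes at an unadjusted p under 0.05 (1 on KD against AL). Of 17 genes of Notch, Wnt and other pathways that influence differentiation, 1 was called lower on DR, Gpr37 (-0.31, edgeR FDR = 0.0206), an orphan receptor that mature oligodendrocytes also express. Gpr37 was higher on KD than on DR (0.38, edgeR FDR = 0.00217), as was Apcdd1, a Wnt inhibitor (0.34, edgeR FDR = 0.00918).

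Precursors are a dividing population, so proliferation genes were counted too. Of 24 proliferation genes 18 passed the filter on low counts in DR against AL, and 1 was called, Top2a. It had 0.468, 0.516, 0.459 and 0.507 CPM in the AL mice against 0.0255, 0.0936, 0.144 and 0.137 CPM in the DR mice (log2FC -2.27, edgeR FDR = 0.00731), levels that rest on few reads. The KD mice had 0.572, 0.171, 0.465 and 0.386 CPM. The list as a whole had 9 negative and 9 positive values on DR against AL, with a median of -0.0074. The mitotic genes Mki67 and Cenpf had a log2FC of -1.29 and -0.95 (unadjusted p of 0.0143 and 0.0164, edgeR FDR of 0.156 and 0.166) and were not called. The mean log2 CPM of the 20 genes of the list kept over all 12 libraries was 0.736 ± 0.0634 on AL, 0.549 ± 0.119 on DR and 0.771 ± 0.0951 on KD (SD, n = 4 each). Their summed level, from 92.8 to 104 CPM on AL and from 98.9 to 104 CPM on DR, was for a large part that of Pcna, a replication clamp, at means of 49.2 and 53.6 CPM.

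Among markers of mature oligodendrocytes, 4 of 19 myelin genes were called lower on DR than on AL and 15 were not called. The share called lower over all genes tested was 1.74%. Those called included Ugt8a (log2FC -0.47), Tspan2 (-0.25) and Cryab (-0.58), with edgeR FDR of 0.0206, 0.0327 and 0.01002. Ugt8a makes the galactolipids of myelin, and Cryab is a small heat shock protein. The list had 15 negative and 4 positive values, with a median of -0.18. Hapln2, a link protein of the nodes of Ranvier, had the opposite sign, at 22.3 ± 2.51 CPM on AL and 27.8 ± 2.82 on DR (SD, n = 4 each), a log2FC of 0.32 that did not pass (edgeR FDR = 0.0608). DESeq2 and the likelihood ratio test each called 1 gene of the list higher on DR. Of their 958 and 998 calls over all genes, 42.9% and 47.5% were higher on DR. On KD against DR 5 were called higher, among them Ugt8a, Tspan2, Cryab and Mag, with a median of 0.20. In that comparison 2.43% of all genes tested were called higher on KD. The summed level of the 19 genes was 2615 to 3291 CPM on AL, 2427 to 2986 on DR and 2864 to 3099 on KD, and the part of this in the values of Sox10, Myrf and the Olig genes was not tested. On KD against AL 0 of the 19 were called by edgeR or DESeq2, with 1 at an unadjusted p under 0.05.

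Pdgfra and Cspg4 are also expressed outside the lineage, in fibroblasts and in pericytes respectively. The 9 pericyte and mural markers summed to 168 to 176 CPM on AL, 151 to 165 on DR and 156 to 166 on KD. Every DR mouse and every KD mouse thus lay below every AL mouse in this sum, of which Rgs5 and Vtn, at means of 67.0 and 48.9 CPM on AL, made up the largest parts. No single marker of the 9 separated AL from DR or AL from KD. For Rgs5, AL replicate 1 at 60.1 CPM lay below DR replicate 1 at 63.7 and KD replicate 1 at 62.9. On DR against AL 0 of 9 were called by edgeR or DESeq2, 7 were negative and 2 had an unadjusted p under 0.05. On KD against AL 0 of 9 were called by edgeR or DESeq2, 7 were negative and 1 had an unadjusted p under 0.05. Rgs5 averaged 58.2 CPM on DR and 59.1 on KD, against 67.0 on AL. The 9 fibroblast markers summed to 67.4 to 82.4 CPM on AL, 59.3 to 86.3 on DR and 69.2 to 81.5 on KD, which overlapped, with 0 of 9 called on DR against AL by edgeR, 1 called higher by DESeq2 and 3 at an unadjusted p under 0.05. The defining markers of both cell types were present, Rgs5 at a mean of 67.0 CPM and Dcn at 11.004 CPM on AL. How much of the Cspg4 and Pdgfra RNA came from these cells was not tested. Bergmann glia and astrocyte markers summed to 3123 to 3265 CPM on AL and 2863 to 2981 CPM on DR. Of these 9 markers 2 were called lower on DR by edgeR (Hopx and Aqp4) and 3 by DESeq2. Of the 13 neuronal markers 1 was called lower on DR by edgeR, Car8, and 3 by DESeq2. For all genes tested, edgeR called 1.74% lower on DR, and DESeq2 made 958 calls in either direction against 583 by edgeR. Of 10 microglial and 10 endothelial markers 0 were called by edgeR or DESeq2, with 2 in each list at an unadjusted p under 0.05. On KD against DR, Hopx, Aqp4 and Car8 were called higher and the granule cell gene Cbln3 lower.

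**Figure D4:**
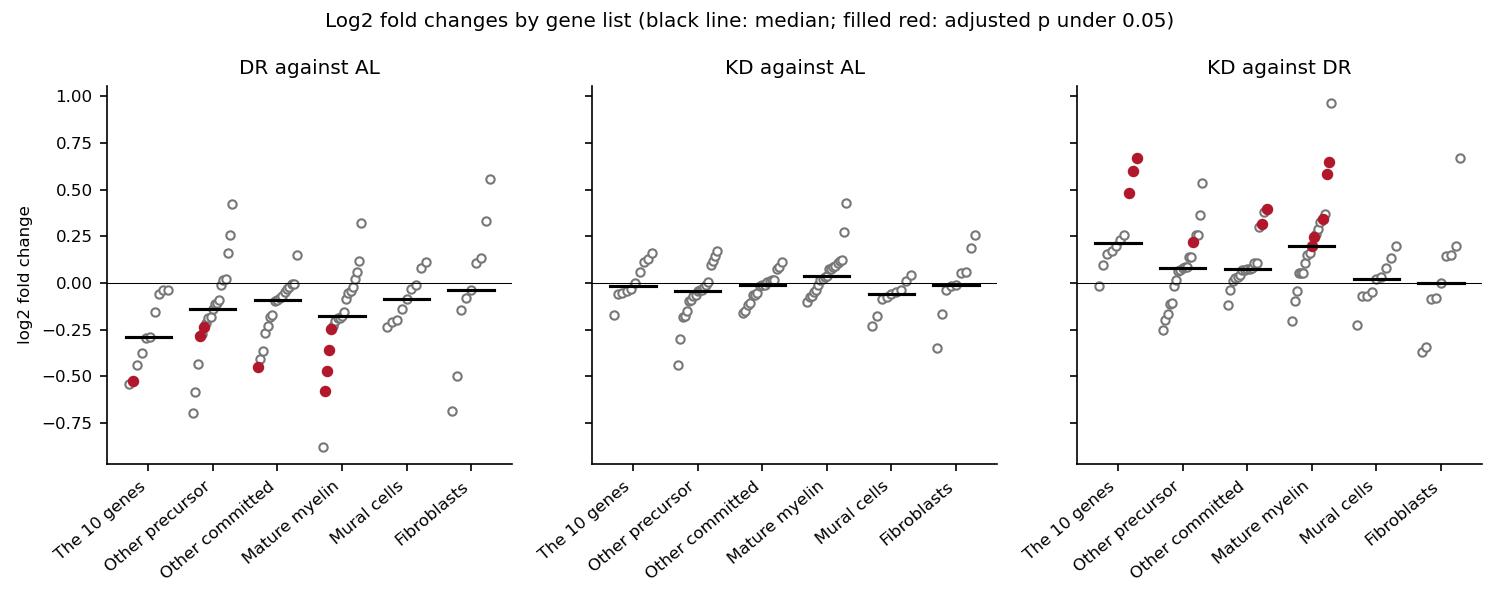
Log2 fold changes (vertical axis) of single genes by list and comparison, with a black line at the median and red fill where the adjusted p is under 0.05. The medians on DR against AL are -0.29 for the 10 genes, -0.14 for other precursor genes, -0.09 for other committed genes and -0.18 for myelin genes, and the KD against AL panel has no filled point.

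Whether the genes followed the amount of myelin RNA from mouse to mouse was examined after the mean of each diet was taken out. Across the 12 mice, Pdgfra had a Pearson's r of 0.63 with the mean log2 CPM of the 19 myelin genes (permutation p = 0.00709, adjusted p = 0.0709 over the 10 genes) and a Spearman's rho of 0.59 (permutation p = 0.0169, adjusted p = 0.109). Olig2 had an r of 0.69 (permutation p = 0.0318, adjusted p = 0.159) and a rho of 0.69 (permutation p = 0.0217, adjusted p = 0.109), and Myrf an r of 0.73 (permutation p = 0.0670, adjusted p = 0.164) and a rho of 0.72 (permutation p = 0.0674, adjusted p = 0.160). None of the 10 correlations passed the adjustment. Over the remaining genes r ran from -0.17 for Bmp4 and 0.12 for Olig1 to 0.66 for Gpr17. Without AL replicates 1 and 2, the mice farthest from the median of the centred myelin mean, r was 0.69 for Pdgfra, 0.70 for Olig2, 0.62 for Myrf and 0.57 for Gpr17. The AL mean was not taken out again for these values. The AL mice that remained, replicates 3 and 4, both had a myelin deviation above 0 (0.13 and 0.12). These r thus also hold a shift of the AL group and cannot tell how r within diets depends on the mice left out. The permutations kept every mouse in its diet (13824 orders), and both measures of a mouse come from the same dissection and library.

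**Figure D5:**
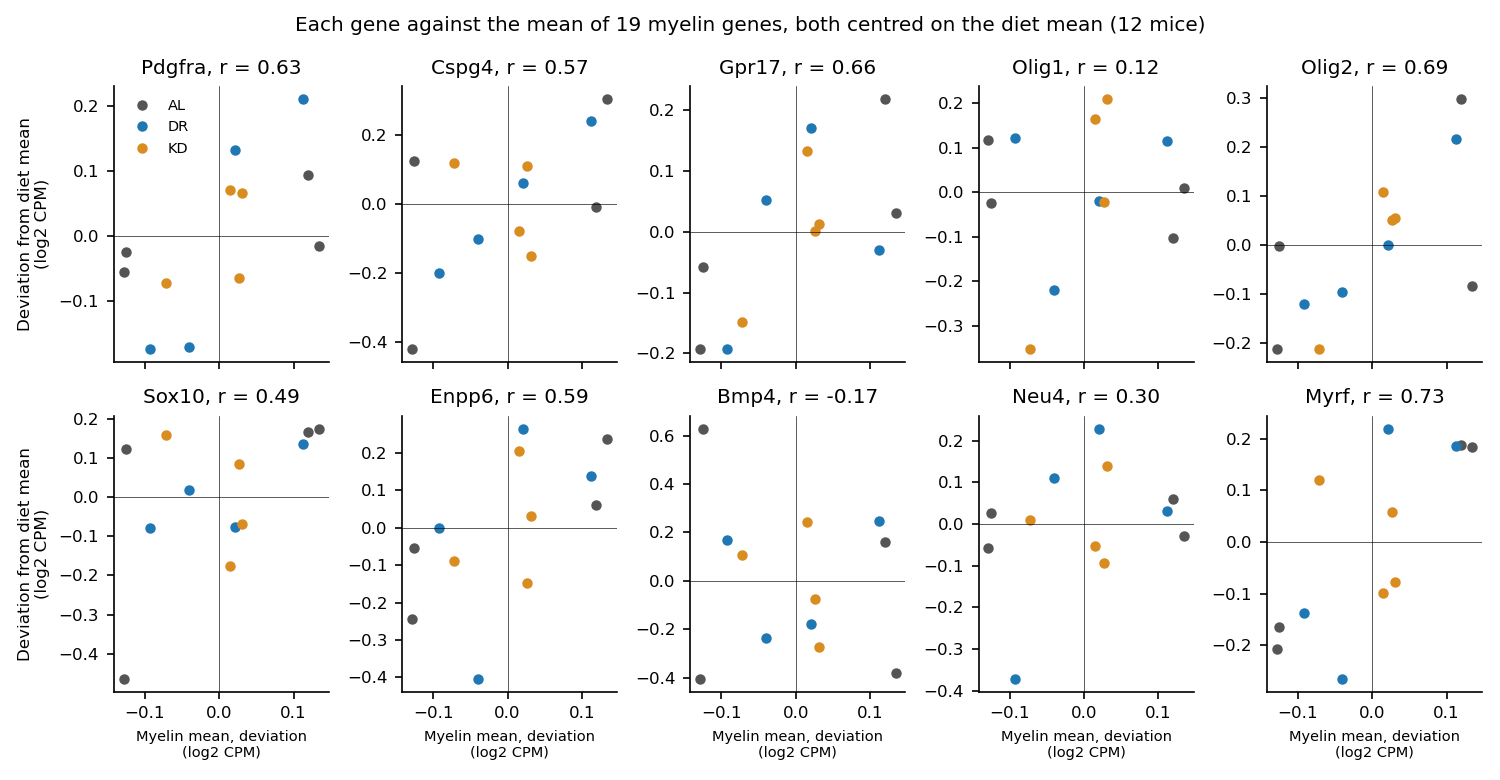
Deviation of each gene from its diet mean (vertical axis, log2 CPM) against the deviation of the mean of 19 myelin genes (horizontal axis, log2 CPM), 1 point per mouse. Pdgfra (r = 0.63), Olig2 (0.69) and Myrf (0.73) slope upward, whereas Olig1 (0.12) and Bmp4 (-0.17) do not.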

How the data were processed

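Poly(A) RNA of cerebellar cortex from 12 mice (4 per diet) was sequenced from paired-end libraries made with a kit that does not keep the strand. Per the labels and the study's methods, the authors trimmed reads with Trimmomatic (0.39), aligned them with STAR (2.7.0f) to GRCm38.p6 and obtained gene counts from featureCounts of Subread (1.6.4). The deposited values are raw gene counts, 1 column per mouse, and the strand setting of the counting is not given in the sources used here. Gene symbols were matched for 54723 of 54752 identifiers with GENCODE annotation of the same build.

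For each pair of diets, low genes were removed by filterByExpr (at least 10 reads, 15 in total), the 8 libraries were TMM-scaled, and edgeR (4.0.16, R 4.3.3) fitted quasi-likelihood models to all remaining genes with Benjamini-Hochberg adjustment, with a call at an adjusted p under 0.05. CPM values use TMM over all 12 libraries, log2 CPM a prior count of 2. Correlations and ratios were tested by exact permutation (numpy 2.4.6, with ranks from scipy 1.17.1). Replicates are separate mice, numbered in order of deposition, and library totals of 31712084 to 40798644 counts limit precision mainly for Enpp6 and Bmp4. Alternatives were DESeq2 (1.42.0) and its size factors, library size alone, no filter, a mean over 10 CPM in a diet, edgeR's likelihood ratio test, a fit on all 12 libraries and leaving out each mouse. All 10 genes, every called gene of the lists up to 5 per list (except 1 not reported here) and cell type markers needed beside them were named, while Bcas1, Pdgfa, Lims2, Vcan, Sulf2, Hapln2, Mki67, Cenpf and Pcna were added after their values were seen. The 10 genes and the lists were chosen with earlier results of these data known.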

Additional observations from a re-analysis of the deposited data

Results flagged for a closer look

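Sox10 in AL replicate 2, at 11.5 CPM, was set apart from the other 3 AL mice, at 17.3 to 17.9 CPM, by 0.902 of the range of the group, above Dixon's 95% critical value for 4 samples. It was the 1 such sample in 30 groups (10 genes in 3 diets), and chance flags about 1 group in 20. The same mouse had the lowest AL value of each of the 10 genes except Olig1. Without it the Sox10 difference between DR and AL was called (log2 fold change -0.58, edgeR FDR = 0.00362).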

How the results depend on the processing

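On DR against AL the count of the 10 genes called, 1 (Gpr17), was 3 without the filter on low counts and 3 with edgeR's likelihood ratio test (Gpr17, Sox10 and Enpp6), 2 with DESeq2 and 2 in the fit on all 12 libraries (Gpr17 and Sox10), and 1 to 2 with a mouse left out (2 without AL replicate 2). Over all genes the 583 calls were 1258 without the filter, 998 with the likelihood ratio test, 958 with DESeq2 and 235 (without DR replicate 3) to 712 with a mouse left out (264, 276, 244 and 353 without AL replicates 1, 2 and 4 and DR replicate 1). On KD against AL 0 of the 10 genes were called in any alternative run, and over all genes the count of 0 was 118 without the filter, 18 with the likelihood ratio test, 10 with DESeq2 and 0 to 6 (without AL replicate 1) with a mouse left out. On KD against DR the 3 genes called were 2 to 3 with a mouse left out and 2 (Gpr17 and Sox10) over genes with a mean above 10 CPM, which leaves Enpp6 out, and the 942 calls over all genes were 1503 without the filter and 467 (without KD replicate 3) to 946 with a mouse left out, with 520, 526 and 601 without DR replicate 3, KD replicate 1 and KD replicate 4. Scaling by library size alone moved the share of calls that were higher from 43.2% to 57.0% on DR against AL and from 49.2% to 37.9% on KD against DR, and the calls among the 10 genes were the same. The log2 fold change of Myrf on KD against AL, -0.00042, was 0.00055 with DESeq2 size factors, 0.0015 without the filter and 0.00043 over genes above 10 CPM. With a mouse left out, log2 fold changes ran on DR against AL from -0.11 to 0.022 for Pdgfra, -0.080 to 0.034 for Olig1 and -0.13 to 0.046 for Olig2, on KD against AL from -0.16 to 0.075 for Cspg4, -0.11 to 0.032 for Gpr17, -0.016 to 0.16 for Olig1, -0.31 to 0.095 for Bmp4 and -0.070 to 0.064 for Myrf, and on KD against DR from -0.076 to 0.056 for Pdgfra. The count of correlations with the myelin mean that passed, 0, was 1 (Pdgfra) with library size alone and 0 to 2 with a mouse left out (Pdgfra and Olig2 without AL replicate 3, Pdgfra without KD replicate 3), and r ran from -0.50 to 0.25 for Bmp4 and from -0.12 to 0.29 for Olig1. The causes of these shifts were not tested. No paired analysis was possible because the labels give no replicate number that the diets share. Depth limited Enpp6 and Bmp4 most.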
